A study of Neurospora crassa with 24 samples.

Results

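The genes *ccg-6* (NCU01418), *ccg-8* (NCU09686) and *ccg-14* (NCU07787) of the filamentous fungus *Neurospora crassa* all carry the name clock-controlled gene. They were taken by these identifiers as 3 of the 9730 genes in the count tables, for their place among the clock-controlled transcripts found early in this fungus and not for their values here. All 3 passed the filter of a mean of at least 2 CPM in every comparison. RNA was sequenced from liquid cultures of ΔMSN1 (stock FGSC #11345), in which *msn-1* (NCU02671) is knocked out, and of the wild type WT (stock FGSC #2489). Cultures of both strains were germinated from conidia in light in a glucose medium, spent 2 days in cycles of 11 h of light and 11 h of dark, and were then kept in the dark. They were harvested at 0 h (lights off) and every 2 h up to 22 h, with 1 culture per strain and time, which gave 12 libraries of ΔMSN1 and 12 of WT. ΔMSN1 is 1 knockout stock, no strain had a replicate at any time, and a sequencing lane is named only for ΔMSN1, so strain and lane cannot be told apart.

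In *N. crassa*, the protein FRQ and the white collar complex form a negative feedback loop, and the white collar complex drives transcription that varies with the time of day. The *ccg* genes were isolated as transcripts whose amount differed between times of day, and several of them also respond to light, glucose or development. *ccg-14* encodes a small secreted protein of the cerato-platanin family, and *ccg-8* encodes a transcription factor linked to the response to azole antifungals in this fungus. MSN1, the protein missing in ΔMSN1, is a stress-response transcription factor.

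Library totals ran from 2415479 to 9829687 estimated counts in ΔMSN1 and from 2732470 to 8094126 in WT. *msn-1* was listed at 0 in 11 of 12 ΔMSN1 libraries and at 0.0396 CPM in the other (10 h), against 27.6 to 50.6 CPM in WT. Levels are given as CPM, that is, estimated counts relative to the size of the library after TMM scaling over the 24 libraries, which levels libraries on the bulk of their genes. The scaling behind the deposited estimated counts is unknown, so levels are compared below within a gene and not between genes. The cultures were submerged mycelium, yet the 6 markers of conidia and aerial growth that were looked up (*con-6*, *con-8*, *con-10*, *eas*, *fl*, *acon-3*) included none at 0 in all libraries of a strain. Their summed level was 683 to 4991 CPM in ΔMSN1 and 913 to 6604 CPM in WT. Without *eas*, which is also a *ccg* gene, the sum was 424 to 2353 CPM in ΔMSN1 and 362 to 2212 CPM in WT. That remainder was mostly *con-8*, with a mean of 773 CPM in ΔMSN1 and 756 CPM in WT. Means in ΔMSN1 and WT were 76.7 and 104 CPM for *con-10*, and 24.1 and 21.5 CPM for *fl*. They were 4.06 and 6.86 CPM for *con-6*, and 0.916 and 1.08 CPM for *acon-3*. The sums therefore stand mainly for *eas* and *con-8*, not for all 6 markers alike. The part of such cells in the results below was not tested.

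*ccg-14* was lower in ΔMSN1 than in WT. Its level was 4167 CPM in the lowest ΔMSN1 library (22 h), 11978 CPM at the median and 23711 CPM in the highest (16 h), against 13564 CPM in the lowest WT library (20 h), 19866 CPM at the median and 23305 CPM in the highest (14 h). Of the 12 ΔMSN1 libraries, 8 lay below every WT library, 3 lay within the WT range and 1, the 16 h library, lay above it. Relative to library totals without TMM, that 16 h library was at 19877 CPM, below the WT library of 10 h (21286 CPM). The mean was 12353 ± 6087 CPM in ΔMSN1 and 19064 ± 3384 CPM in WT (SD over times, n = 12 each). With time as a factor, the difference was −0.77 ± 0.179 on the log2 scale (SE), or 0.585-fold, with an adjusted p of 0.00660 (edgeR's quasi-likelihood test, Benjamini-Hochberg over 7309 genes). RNA was taken from whole cultures, so fewer cells that express the gene and less RNA per cell cannot be told apart.

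The deficit of *ccg-14* was uneven over the dark period. ΔMSN1 was below WT at 11 of 12 times, but the log2 ratio at single times went from −1.93 (8 h) to 0.22 (16 h), with an SD of 0.69. At 8 h the gene was at 5639 CPM in ΔMSN1 and 21483 CPM in WT, a ratio of 0.263. At 12 h, in contrast, it was at 21889 CPM in ΔMSN1 and 22140 CPM in WT, a ratio of 0.989. The spread over times was larger in the knockout, where the highest library was 5.69 times the lowest, than in WT, where it was 1.72 times. The 3 ΔMSN1 libraries highest in *ccg-14* (16, 12 and 2 h) had TMM factors of 0.838 to 0.951, and the 3 lowest (22, 8 and 18 h) had factors of 1.18 to 1.26. The part of the scaling in this spread was not tested.

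*ccg-8*, the transcription factor gene, was measured at few counts, 25.3 to 185 estimated counts per library in ΔMSN1 and 26.4 to 90.7 in WT. Its level was 10.5 CPM in the lowest ΔMSN1 library (2 h), 12.99 CPM at the median and 22.3 CPM in the highest (22 h), against 8.72 CPM in the lowest WT library (4 h), 11.4 CPM at the median and 14.9 CPM in the highest (12 h). The strains overlapped: 3 ΔMSN1 libraries (10, 14 and 22 h) were above every WT library, and 9 were above the WT median. The mean was 14.0 ± 3.46 CPM in ΔMSN1 and 11.4 ± 1.84 CPM in WT (SD, n = 12 each), and ΔMSN1 was the higher strain at 9 of 12 times. The difference of 0.29 ± 0.110 on the log2 scale, or 1.23-fold, had an adjusted p of 0.0663 in edgeR, which misses the threshold of 0.05. It passed when the libraries of 0 h were left out (0.34, adjusted p = 0.0440) or those of 12 h (0.36, adjusted p = 0.0268), so which side of the threshold it fell on rested on single times.

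*ccg-6* was lower in ΔMSN1 than in WT by a small amount. It stood at 2143 CPM in the lowest ΔMSN1 library (12 h), 2682 CPM at the median and 3411 CPM in the highest (10 h), against 2471 CPM in the lowest WT library (12 h), 3113 CPM at the median and 4046 CPM in the highest (4 h). The ranges of the strains overlapped: 4 ΔMSN1 libraries (12, 14, 16 and 22 h) were below every WT library, and 11 were below the WT median. Means were 2644 ± 352 CPM in ΔMSN1 and 3197 ± 430 CPM in WT (SD, n = 12 each). The difference was −0.27 ± 0.074 on the log2 scale, or 0.827-fold, with an adjusted p of 0.0157 in edgeR. ΔMSN1 was below WT at 11 of 12 times, with log2 ratios down to −0.54 (4 h), and at 2 h the strains were at 2847 CPM in ΔMSN1 and 2844 CPM in WT.

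**Figure D1:**
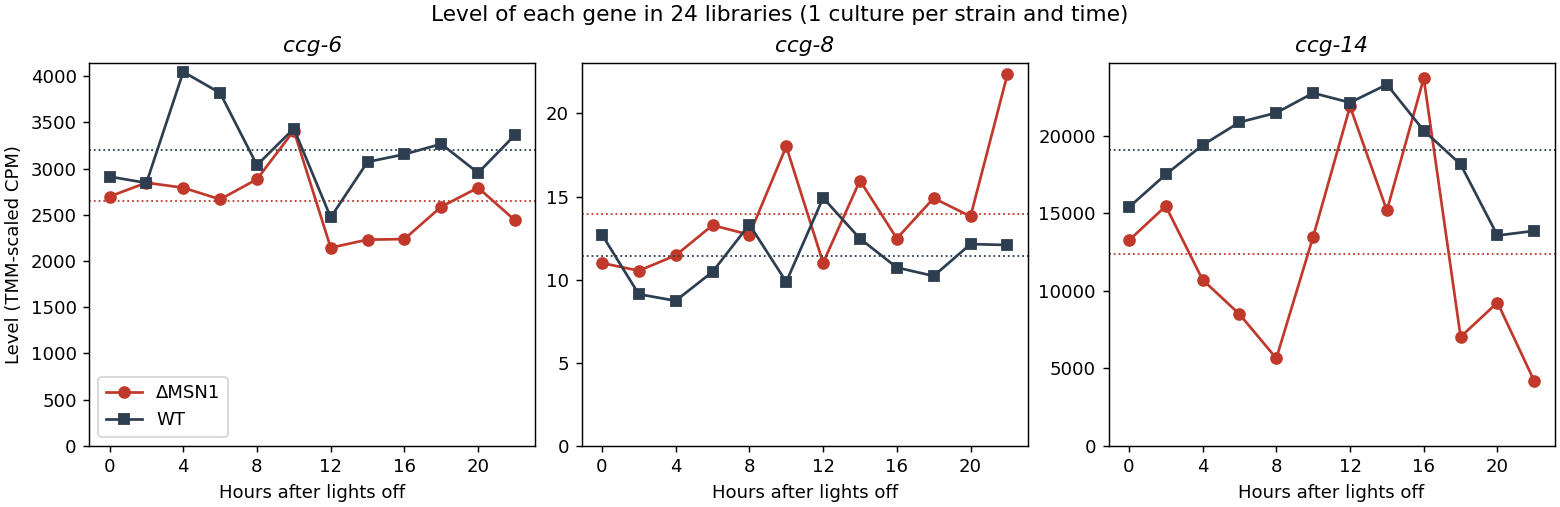
Level of *ccg-6*, *ccg-8* and *ccg-14* (TMM-scaled CPM, axes from 0) against hours after lights off, with 1 point per library, ΔMSN1 as red circles and WT as dark squares; dotted lines are the mean of the 12 libraries of each strain. *ccg-14* in ΔMSN1 moves between 4167 and 23711 CPM with low points at 8, 18 and 22 h, while in WT it stays between 13564 and 23305 CPM.

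Between the strains, 2 of the 3 genes were called, both lower in ΔMSN1. Of all 7309 genes tested, 21.8% were called at an adjusted p under 0.05, 11.9% higher and 9.93% lower in ΔMSN1, and the median log2 difference over all genes was 0.01. The calls depended in part on the scaling. With library totals as the only scaling, the median difference of all genes was 0.19, and 89.6% of the called genes were higher in ΔMSN1, against 54.5% with TMM. On that scale *ccg-14* kept its call (−0.60, adjusted p = 0.00492), *ccg-6* lost it (−0.11, adjusted p = 0.303) and *ccg-8* gained one (0.47, adjusted p = 0.00762), all in edgeR. Relative to the median of all genes on the same scale, the differences were nearly alike, −0.80 for *ccg-14* on library totals and −0.79 with TMM, −0.30 and −0.29 for *ccg-6*, and 0.28 on both for *ccg-8*.

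**Figure D2:**
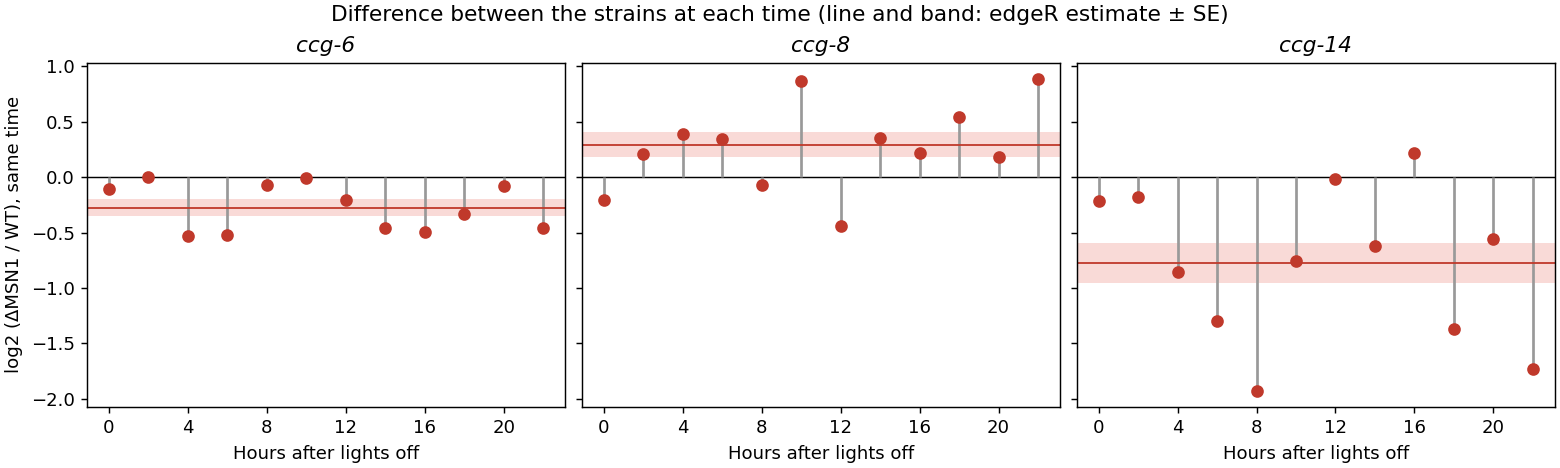
Log2 ratio of ΔMSN1 to WT at each of the 12 times (1 library per strain and time), with edgeR's estimate and its SE as line and band. Points of *ccg-6* and *ccg-14* lie below 0 at 11 of 12 times, those of *ccg-8* lie above 0 at 9 of 12, and *ccg-14* spreads the most, between −1.93 and 0.22.

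The second question was whether the genes, named for their control by the clock, were rhythmic in the dark. Rhythms were tested with cosine and sine terms of 22, 11 and 7.3 h together at a false discovery rate of 0.1. Neither strain gave a call: 0 of 3 genes in ΔMSN1, where 0.041% of all 7318 genes tested were called, and 0 of 3 in WT, where 0.318% of 7242 were. At an unadjusted p under 0.05, edgeR had 0 of 3 in ΔMSN1, against 8.05% of all genes, and 1 of 3 (*ccg-14*) in WT, against 12.7%. DESeq2's likelihood ratio test, which called more of all genes (2.62% in ΔMSN1 and 4.25% in WT), called 0 of 3 in ΔMSN1 and 1 (*ccg-14*) in WT. limma-voom called 0 of 3 in both strains, with 0.0547% of all genes called in ΔMSN1 and 0.0829% in WT. The clock gene *frq* was not called in edgeR either, with a 22 h fold of 2.78 in ΔMSN1 and 4.26 in WT. Its adjusted p in the rhythm test was 0.647 in ΔMSN1 and 0.329 in WT. With 12 libraries per strain, a missing call therefore does not show that a gene lacks a rhythm.

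Of the 3 genes, *ccg-14* in WT came nearest to a daily rhythm. Its level climbed over the first part of the dark period, from 15386 CPM at 0 h through 19398 CPM at 4 h and 21483 CPM at 8 h to 23305 CPM at 14 h, and was 13564 CPM at 20 h and 13864 CPM at 22 h. The points formed a single broad hump with the high values at 6 to 16 h. The 22 h component was 1.55-fold from trough to peak (log2 0.63 ± 0.137, SE) and a fitted peak at 10.6 ± 0.81 h, with p = 0.00349 and an adjusted p of 0.118 in edgeR (n = 12 libraries). Of all genes, 2.33% were called for a 22 h component in WT. Terms of 22 h alone brought the gene past the threshold (adjusted p = 0.0603 in edgeR, with 1.85% of genes called), as did DESeq2 (adjusted p = 0.00245 for the 22 h component, with 3.51% of genes called).

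In ΔMSN1 the same gene had its high libraries at 12 and 16 h and its low ones at 8, 18 and 22 h, not a single hump. The 22 h fold was 1.91 (log2 0.93 ± 0.447) with a fitted peak at 14.1 ± 1.65 h, p = 0.161 and an adjusted p of 0.822 in edgeR; 0.219% of all genes were called. The 11 h component was larger, 2.33-fold, with p = 0.0802 and an adjusted p of 0.450. Leaving out 1 time at once moved the 22 h fold between 1.42 and 2.502 with no call. The difference of the 22 h component between ΔMSN1 and WT had p = 0.328 and an adjusted p of 1 in edgeR, with 0.0821% of all genes called, so the strains were not shown to differ in this rhythm. Fitted to both strains together, the 22 h component of *ccg-14* was 1.61-fold with a peak at 12.5 ± 1.36 h (p = 0.0451, adjusted p = 0.297 in edgeR), where 5.1% of all genes were called.

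*ccg-8* had weak components at every period. The 22 h fold was 1.18 in ΔMSN1 (peak at 14.8 ± 3.89 h, adjusted p = 0.972) and 1.26 in WT (peak at 13.4 ± 1.78 h, adjusted p = 0.582), both in edgeR. The strongest component in WT was that of 7.3 h, 1.34-fold with p = 0.0890 and an adjusted p of 0.603. Single libraries stood out more than any trend: 18.0 CPM at 10 h and 22.3 CPM at 22 h in ΔMSN1, and 14.9 CPM at 12 h in WT. At those times the other strain was at 9.86 CPM (10 h, WT), 12.1 CPM (22 h, WT) and 11.0 CPM (12 h, ΔMSN1), so the high points did not coincide. The 22 h component of *ccg-8* was not shown to differ between ΔMSN1 and WT (p = 0.895, adjusted p = 1 in edgeR).

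*ccg-6* had the smallest ratio of highest to lowest library of the 3 genes in each strain, though not the smallest 22 h fold in ΔMSN1. Its highest library was 1.59 times its lowest in ΔMSN1 and 1.64 times in WT. The 22 h fold was 1.23 in ΔMSN1 (peak at 5.23 ± 2.01 h, adjusted p = 0.876) and 1.18 in WT (peak at 4.23 ± 2.38 h, adjusted p = 0.766), both in edgeR. The median 22 h fold of all genes tested was 1.22 in each strain. Fitted to both strains together, the component was 1.22-fold with a peak at 4.65 ± 1.32 h (p = 0.0623, adjusted p = 0.347). Both strains were at their lowest at 12 h, 2143 CPM in ΔMSN1 and 2471 CPM in WT, and both were high at 10 h, 3411 CPM in ΔMSN1 and 3433 CPM in WT. The test of a difference in the 22 h component between ΔMSN1 and WT gave p = 0.946 (adjusted p = 1 in edgeR).

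A time effect with no assumed shape, in which the other strain served as the second culture of each time, called 0 of the 3 genes, against 2.39% of all 7309 genes. The count at an unadjusted p under 0.05 was also 0 in edgeR, and DESeq2 and limma-voom called 0. In this test, a course over time that differs between the strains counts as error. Its lack of calls therefore does not show that a gene was steady over time in either strain. The fold between the highest and the lowest time was 1.49 for *ccg-6* (10 and 12 h, adjusted p = 0.659), 1.67 for *ccg-8* (22 and 2 h, adjusted p = 0.788) and 2.90 for *ccg-14* (12 and 22 h, adjusted p = 0.499). With the times ranked by level, neighbours differed by less than the residual SD in 10 of 11 pairs for *ccg-6*, 11 of 11 for *ccg-8* and 10 of 11 for *ccg-14*. That SD, around strain and time, was 0.15, 0.28 and 0.49 on the log2 scale in the same order of genes. Ranking itself makes the gaps between neighbours small. These counts therefore bear on the order of neighbouring times, not on whether the level varied over time.

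The last comparison over time set 0 h, when the lights had just gone off, beside 22 h, a full cycle into the dark. The clock gene *frq*, which light induces, was higher at 0 h: 24.02 CPM at 0 h and 5.52 CPM at 22 h in ΔMSN1, and 19.3 and 7.92 CPM in WT (3.19-fold, adjusted p = 0.00281 in edgeR). None of the 3 genes passed this test in edgeR (0 also at an unadjusted p under 0.05, by DESeq2 and by limma-voom), which called 1.01% of all genes, 0.807% higher and 0.205% lower at 0 h. *ccg-14* was at 13249 CPM at 0 h and 4167 CPM at 22 h in ΔMSN1, and at 15386 and 13864 CPM in WT, which gave 1.81-fold higher at 0 h (log2 0.86 ± 0.431, p = 0.0640, adjusted p = 0.352). The ΔMSN1 libraries of these times were further apart than the WT libraries. *ccg-8* was at 11.0 CPM at 0 h and 22.3 CPM at 22 h in ΔMSN1, and at 12.7 and 12.1 CPM in WT (log2 −0.43 ± 0.262, adjusted p = 0.456). *ccg-6* had a log2 difference of −0.03 ± 0.181 (adjusted p = 0.9504). On library totals the median of all genes was −0.30, against −0.03 with TMM, and 46.1% of called genes were higher at 0 h, against 79.7%; relative to that median *ccg-14* was at 0.87 on library totals and 0.88 with TMM.

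The other *ccg* genes give the background for these values. The tables held 9 of them; *cmt*, the copper metallothionein gene, was listed at 0 in all 24 libraries, *ccg-4*, a pheromone precursor gene, was above 0 in 4, and the other 7 were tested. Between the strains 3 of the 7 were called, all lower in ΔMSN1, where 21.8% of all genes were called and 9.93% were called lower. *ccg-1*, a glucose-repressible gene, was at 0.693-fold (adjusted p = 0.000276 in edgeR). *gpd-1* (*ccg-7*), the glyceraldehyde-3-phosphate dehydrogenase gene, was at 0.562-fold (adjusted p = 0.0116 in edgeR). *eas* (*ccg-2*), the hydrophobin gene of conidia, was at 0.544-fold (adjusted p = 0.0187 in edgeR). The 0.585-fold of *ccg-14* lay between those of *ccg-1* and *gpd-1*. The median log2 difference of the 7 was −0.41, against 0.01 for all genes. Among the conidial markers, *eas* was the 1 of 5 tested that was called between the strains, near the 21.8% of all genes, and 3 of the 5 had a time effect, against 2.39% of all genes.

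In the rhythm test with all 3 periods, 0 of 7 were called in ΔMSN1, against 0.041% of all genes. *ccg-1* was the only one of the 7 called in WT (22 h fold 2.91, adjusted p = 0.0835 in edgeR), against 0.318% of all genes. At an unadjusted p under 0.05 there were 3 of 7 in each strain, against 8.05% of all genes in ΔMSN1 and 12.7% in WT. For the 22 h component, 0 of 7 were called in ΔMSN1 (0.219% of all genes) and 1 (*ccg-1*) in WT (2.33%). At an unadjusted p under 0.05 in edgeR, that component had 2 of 7 in ΔMSN1, against 8.05% of all genes, and 6 of 7 in WT, against 14.4%. For the 22 h component shared by the strains, 2 of 7 were called, against 5.1% of all genes. They were *ccg-1* (2.86-fold, adjusted p = 1.04e-06 in edgeR) and *eas* (4.31-fold, adjusted p = 0.0321 in edgeR). The median 22 h fold of the 7 was 1.71 in ΔMSN1 and 1.94 in WT. *ccg-14*, at 1.91 in ΔMSN1 and 1.55 in WT, lay on either side of those medians, and *ccg-6* and *ccg-8* lay near the median of all genes, 1.22. Among 7 clock genes (*frq*, *frh*, *wc-1*, *wc-2*, *vvd*, *csp-1*, *sub-1*), 0 were called for the 22 h component in ΔMSN1 (0.219% of all genes), 2 in WT (2.33%) and 4 for the component shared by the strains (5.1%).

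**Figure D3:**
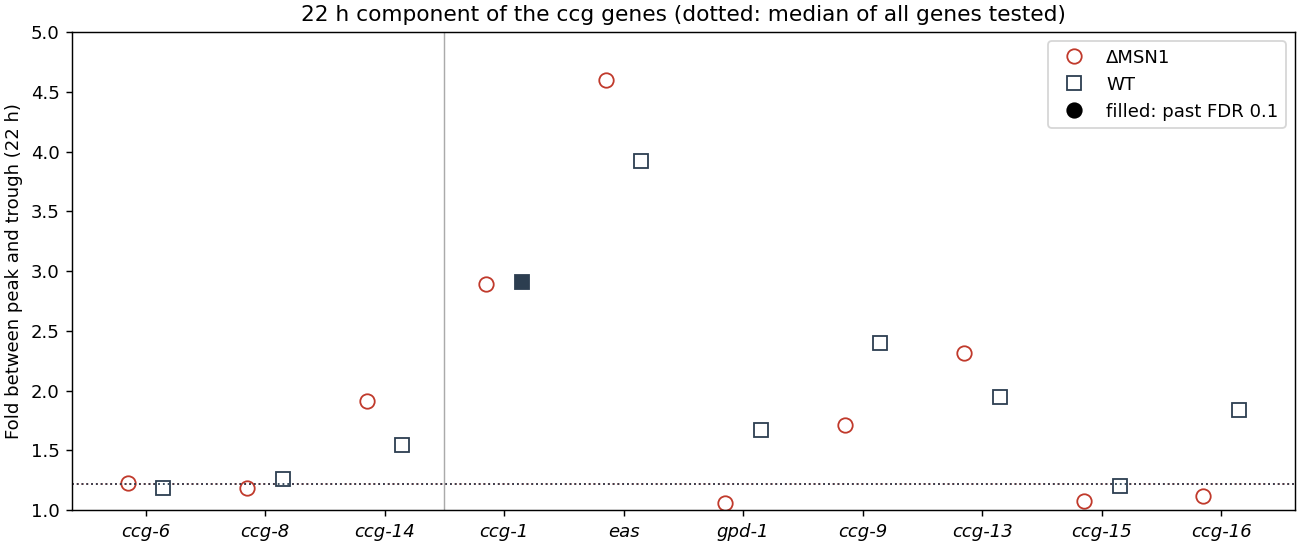
Trough-to-peak fold of the 22 h component for *ccg-6*, *ccg-8* and *ccg-14* (left of the line) and the 7 other *ccg* genes tested, with ΔMSN1 as red circles and WT as dark squares, filled where the component passed a false discovery rate of 0.1. *ccg-6* and *ccg-8* lie near the dotted median of all genes (1.22), *ccg-14* lies at 1.91 in ΔMSN1 and 1.55 in WT, and *ccg-1* in WT (2.91) is the filled point.

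Over the 24 libraries the 3 genes did not share a profile. Likeness was taken as Pearson's r of log2(CPM + 1) after the mean of each strain was subtracted, a description over 24 libraries that share depth and scaling. It was −0.23 for *ccg-6* with *ccg-8*, −0.19 for *ccg-6* with *ccg-14* and −0.42 for *ccg-8* with *ccg-14*. The pair *ccg-6* and *ccg-8* had r = 0.07 within ΔMSN1 and −0.67 within WT (12 libraries each).

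Each gene had close companions outside the group, the 3 of largest r among 7310 genes. They were picked by r over these same libraries, so a shared course over time follows from the choice and is no separate result. For *ccg-14* these were *alc-1*, the allantoicase gene (r = 0.94), *ccg-13* (r = 0.94) and NCU09738 (r = 0.93), where the 95th percentile over all genes was 0.70. The likeness to *ccg-13* was 0.97 within ΔMSN1 and 0.79 within WT. Like *ccg-14*, *ccg-13* was lowest in ΔMSN1 at 22 h (4338 CPM) and highest there at 16 h (35157 CPM). Relative to library totals without TMM, both genes were highest in ΔMSN1 at 12 h instead. There *ccg-13* was at 32052 CPM and *ccg-14* at 20127 CPM, against 29471 and 19877 CPM at 16 h. The difference of *ccg-13* between the strains, 0.752-fold, was not called (adjusted p = 0.186 in edgeR). That of NCU09738, 0.704-fold, was called (adjusted p = 0.0173 in edgeR).

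For *ccg-8* the closest were *vib-1*, a transcription factor gene of heterokaryon incompatibility (r = 0.90), the protein kinase gene *prk-10* (r = 0.86) and NCU09076 (r = 0.86), with a 95th percentile of 0.57. The likeness to *vib-1* was 0.90 within ΔMSN1 and 0.89 within WT. *vib-1* had a strain ratio of 0.980 (adjusted p = 0.813) where *ccg-8* had 1.23. For *ccg-6* the closest were NCU05989 (r = 0.75), NCU01512 (r = 0.75) and NCU06424 (r = 0.72), with a 95th percentile of 0.51. Of the other *ccg* genes, the one most like *ccg-8* was *ccg-15* (r = 0.68), which encodes an anchored cell wall protein, and *ccg-1* ran opposite to *ccg-6* (r = −0.57).

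**Figure D4:**
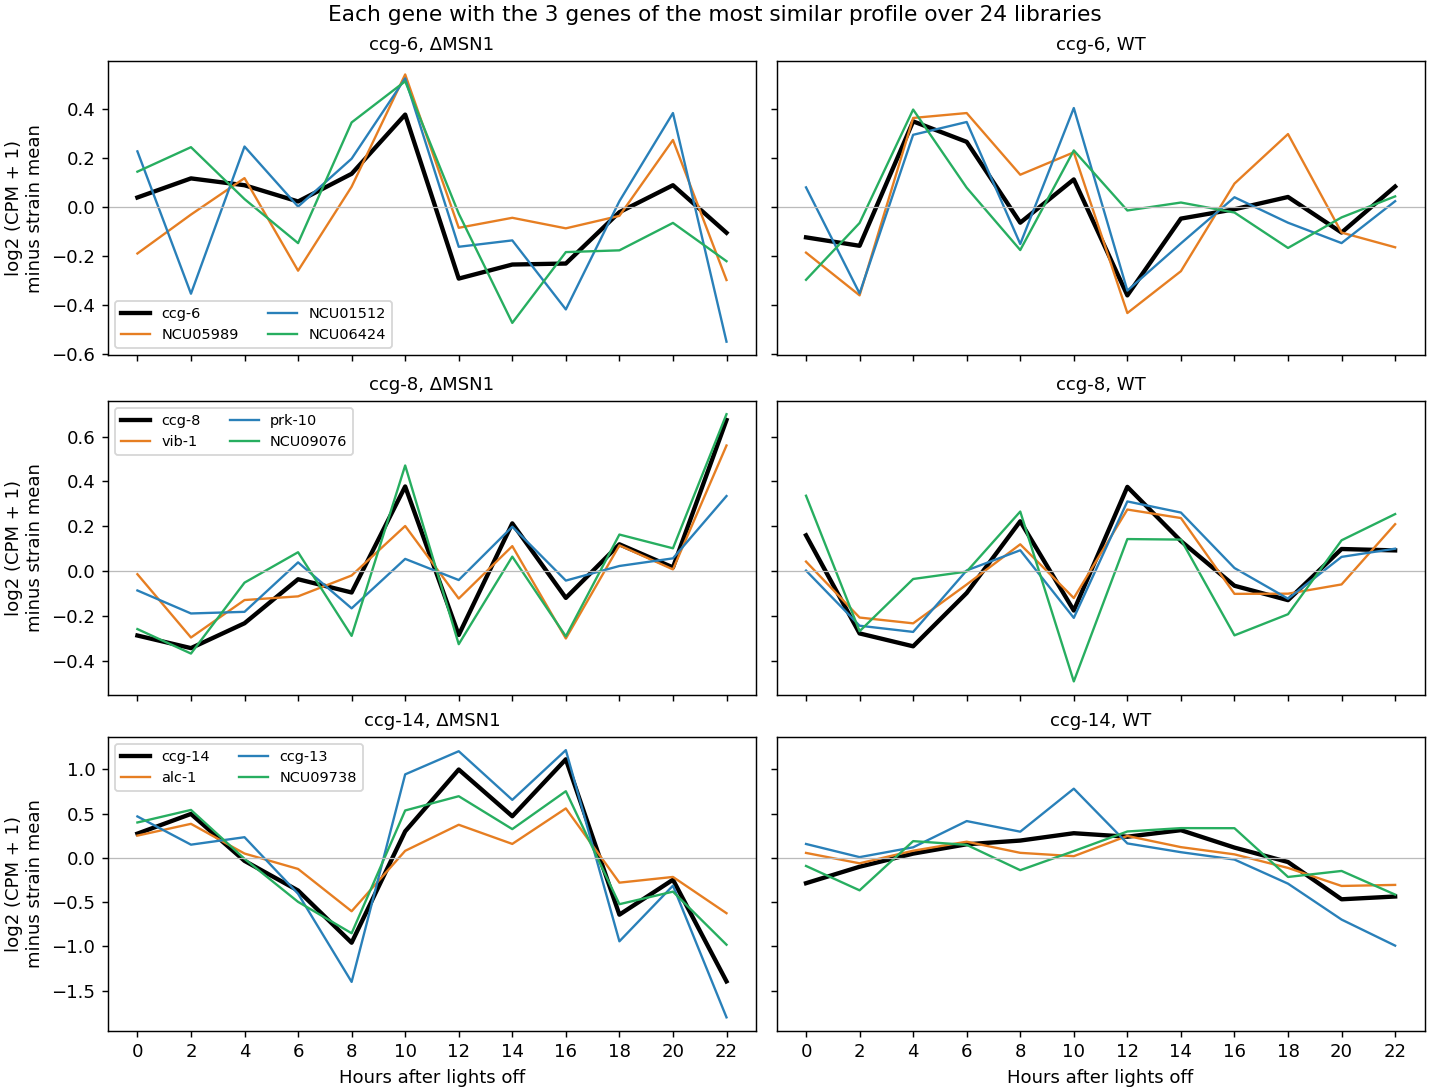
Log2(CPM + 1) minus the strain mean against hours after lights off for *ccg-6*, *ccg-8* and *ccg-14* (black) and the 3 genes with the largest r over 24 libraries (colours), with ΔMSN1 in the left panels and WT in the right ones. *ccg-14* and its companions dip together at 8, 18 and 22 h in ΔMSN1, and the peak of *ccg-8* at 22 h in ΔMSN1 is shared by its companions. The companions were picked by r over the same libraries, so this likeness follows from the choice.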

How the data were processed

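Polyadenylated RNA of 24 cultures was sequenced by the authors, who deposited 1 table of estimated counts per strain; the submitters' processing notes name kallisto 0.43.1, and no genome build is given in the sources used here. How the authors scaled the estimated counts is not known, and most values are not whole numbers. They were rounded to whole numbers, scaled by TMM and tested with edgeR 4.0.16 in R 4.3.3 (quasi-likelihood F tests, a minimum mean of 2 CPM, Benjamini-Hochberg adjustment over all genes tested). Rhythms were fitted with 6 harmonic terms (22, 11 and 7.3 h) in each strain, at a false discovery rate of 0.1; strain was tested with time as a factor at an adjusted p of 0.05. Strain and time came from the sample labels, and 0 columns were unmapped. With 1 culture per strain and time, p-values measure the spread between single cultures around the fit.

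The text names the 3 genes, the other genes named *ccg* with a number in the reference table (NC12, used for names only), *msn-1* and *frq* as checks, the lists of clock genes, of cell wall proteins and of conidial and sexual markers, and per gene the 3 genes of largest r. The genes and lists were chosen with earlier results of these data known. The tests were also run on simulated counts, drawn independently per gene with a preset dispersion. Their error rates on these libraries were not measured. Alternatives used DESeq2 1.42.0, limma 3.58.1, other scalings, filters and terms, and left out each time; figures were drawn with matplotlib 3.10.9.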

Additional observations from a re-analysis of the deposited data

How the results depend on the processing

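Of 504 values of *ccg-6*, *ccg-8* and *ccg-14* under another setting, 496 stayed on their side of the threshold, 7 gained a call and 1 lost it. Only the 111 values of the strains and of 0 h against 22 h have a sign that could change, and 0 of them did; the others are amplitudes or ranges. In WT, the rhythm test and the 22 h component each called 1 of 3 genes (*ccg-14*) with DESeq2's likelihood ratio test, against 0 in edgeR with terms of all 3 periods. They also called 1 in edgeR with terms of 22 h alone, where both are the same test, counted under both among the 7. The cause was not tested. The 3 other gained calls (*ccg-8*) and the lost one (*ccg-6*, on library totals) concern the strains and are given above. With no replicate block for time, the strain differences were −0.63 for *ccg-14* (adjusted p = 0.0373 in edgeR), −0.27 for *ccg-6* (adjusted p = 0.0192) and 0.30 for *ccg-8* (adjusted p = 0.0580), and 1494 genes were called, against 1596 with it; deviations of ΔMSN1 and WT libraries of the same time had r from −0.12 to 0.49 across genes, above 0.1 at 6 of 12 times. Leaving out each time, the strain difference was −0.86 to −0.68 for *ccg-14*, −0.30 to −0.25 for *ccg-6* and 0.23 to 0.36 for *ccg-8*. Counts over all genes moved by more than 1.5 times for several tests: between the strains, 2654 were called on library totals and 1032 without 0 h and 22 h; leaving out 1 time gave 0 to 455 for the rhythm in WT (23 in edgeR with all times), 0 to 82 in ΔMSN1 (3) and 18 to 481 for the 22 h component in WT (169). A planned fit of values times gene length was not run, since the build behind the files is not named. *ccg-8*, at 25.3 to 185 estimated counts per library in ΔMSN1 and 26.4 to 90.7 in WT, is the gene whose precision depth limits most.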

Other observations

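Genes next to *ccg-6*, *ccg-8* and *ccg-14* in the reference annotation were looked up after the values had been seen. Next to *ccg-14* lies *col-26*, a transcription factor gene, which averaged 13.9 ± 5.21 CPM in ΔMSN1 and 11.6 ± 1.92 CPM in WT (SD, n = 12 each) and was not called between the strains (1.19-fold, adjusted p = 0.128 in edgeR), while *ccg-14* was called lower. NCU09685, next to *ccg-8*, changed over time (5.77-fold between its highest and lowest time, adjusted p = 0.0269 for the time effect shared by the strains in edgeR), where *ccg-8* was not called (adjusted p = 0.788). It averaged 3.29 ± 2.48 CPM in ΔMSN1 and 4.39 ± 2.56 CPM in WT. NCU01419, next to *ccg-6*, averaged 62.4 ± 15.4 CPM in ΔMSN1 and 65.0 ± 8.78 CPM in WT, with a strain ratio of 0.941 (adjusted p = 0.429).

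*ccg-13* and *ccg-15* also belong to a list of 19 cell wall protein genes. Of these, 6 were called between the strains, 1 higher and 5 lower in ΔMSN1, where 21.8% of all genes were called, 11.9% higher and 9.93% lower, with a median log2 difference of −0.27, against 0.01 for all genes. For the 22 h component, 0 of 19 were called in ΔMSN1 (0.219% of all genes), 1 in WT (2.33%) and 2 with both strains together (5.1%). These few calls were near those shares. At an unadjusted p under 0.05 in edgeR there were 2 of 19 in ΔMSN1, against 8.05% of all genes. In WT there were 7 of 19, against 14.4%, and with both strains together 7 of 19, against 16.1%. The median 22 h fold of the 19 was 1.32 in ΔMSN1 and 1.39 in WT, against 1.22 for all genes in each strain. The sexual marker *app* was 0.179-fold in ΔMSN1 (adjusted p = 4.36e-08 in edgeR). The summed level of the sexual markers *app* and *poi-2* was 4.67 to 88.0 CPM in ΔMSN1 and 25.9 to 420.3 CPM in WT. That sum was mostly *app*. *poi-2* averaged 1.31 ± 1.60 CPM in ΔMSN1 and 2.11 ± 0.82 CPM in WT (SD, n = 12 each) and was not tested. Its highest library was at 6.15 CPM in ΔMSN1 (22 h) and at 3.26 CPM in WT (16 h), so a lower level in ΔMSN1 rests on *app* alone.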
